A study of Mus musculus with 6 samples.

Results

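Collagen genes were followed in bulk RNA-seq of the mouse spinal cord after deletion of Sox2 in astrocytes. Protein-coding genes whose mouse symbol has the form Col, number, a, number were taken as members when their counts summed to 30 or more over the 6 libraries, which gave 42 genes of the 35275 in the deposited table. Another 2 collagen genes, Col17a1 with a summed count of 20 and Col10a1 with 13, fell under that minimum. Of the 42 members, 41 passed the filter on low counts and were tested, and Col6a5 did not.

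The Sox2 cKO group held spinal cords of 3 C57BL/6 mice of the genotype mGfap-Cre:Sox2fl/fl, and the Ctrl group held those of 3 C57BL/6 mice labelled mGfap-Cre:Sox2+/+, while the study's methods name Sox2fl/fl littermates as controls. SOX2 is a high-mobility-group transcription factor that neural stem cells and astrocytes use, and the mGfap-Cre transgene removes it constitutively in cells where the mouse Gfap promoter is or was active, which are astrocytes in the main. Sample labels put the mice at postnatal day 90 and the extraction protocol puts them at day 80. Per the study's methods the groups held the same mix of sexes, and the labels put the RNA integrity number above 6.8. The study's methods set that limit higher. RNA came from whole cord, so fewer cells of a type and less RNA per cell cannot be told apart. The deposited column names show neither group nor replicate by themselves. Their last digit is a mouse number, and the even numbers 2, 4 and 6 mark Ctrl and the odd numbers 1, 3 and 5 mark Sox2 cKO. This numbering is that of the mice in a protein blot of the study.

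Collagens are extracellular proteins built from chains that wind into a triple helix. Fibrillar collagens assemble into banded fibrils, in which the abundant types I and III form the bulk and the minor types V, XI, XXIV and XXVII are thought to start fibrils or set their width. Basement membrane collagen IV forms the sheet under endothelium and around the cord surface, FACIT collagens decorate fibrils, and transmembrane collagens sit in the plasma membrane with their helix outside the cell. In the healthy cord most collagen lies in meninges and vessel walls, while neurons and glia make a small set of their own.

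Total counts ran from 21507911 to 28392184 per library, and Sox2 itself was 7.26-fold lower in Sox2 cKO, at 9.60, 6.94 and 13.5 FPKM in Ctrl and 1.63, 1.35 and 1.47 FPKM in Sox2 cKO (adjusted p = 0.000956, edgeR quasi-likelihood test). FPKM are the deposited read counts scaled by gene length and library total, and serve here for levels, whereas every fold change comes from the counts. A gene is said to be called when its adjusted p is below 0.05. Ctrl library 6 stood apart in 12 markers of meningeal or perivascular fibroblasts, which summed to 226 CPM (counts scaled to the library size, with TMM factors) there, to 500.4 and 487 CPM in Ctrl libraries 2 and 4, and to between 448 and 606 CPM in Sox2 cKO; none of the 12 was at 0 in every library. The summed astrocyte markers were lower in Sox2 cKO, at 6060 to 6307 CPM against 8265 to 10598 CPM, and 6 of 10 were called lower. Summed endothelial markers, 233 to 260 CPM in Ctrl and 242 to 345 CPM in Sox2 cKO, and summed pericyte and smooth muscle markers, 240 to 274 and 258 to 341 CPM, overlapped between groups. In FPKM the same sums were higher in every Sox2 cKO library, at 76.1 to 88.9 FPKM against 108 to 170 FPKM for endothelial markers, 71.7 to 93.2 against 98.8 to 136 FPKM for pericyte and smooth muscle markers, and 80.7 to 192 against 199 to 283 FPKM for fibroblast markers. These FPKM carry no TMM factors, and their sums weigh short genes more. Tested genes of up to 1000 bases had a median log2 fold change of 0.37 (edgeR). Summed neuron markers averaged 2572 FPKM in Ctrl and 2663 FPKM in Sox2 cKO, but 9835 and 9653 CPM. The part of the unit in the FPKM differences was not tested. Called higher were 2 of the 10 endothelial markers, Ly6c1 and Emcn, and 1 of the 10 pericyte and smooth muscle markers, Kcnj8. So was 1 of the 12 fibroblast markers, Mgp, which DESeq2 did not call (adjusted p = 0.0672). Called lower were 1 of the 12 fibroblast markers, Pdgfra (log2 fold change -0.37, adjusted p = 0.0235, edgeR), and 1 of the 10 pericyte and smooth muscle markers. Pdgfra also marks oligodendrocyte precursors, and 5 of 7 markers of those cells were called lower. Their sum was 260 to 290 CPM in Ctrl and 195 to 231 CPM in Sox2 cKO. Pdgfra was not low in Ctrl library 6, at 58.5 CPM beside 56.3 and 62.4 CPM in Ctrl libraries 2 and 4. Of all genes tested, 12.2% were called higher and 12.4% lower. The part of these cells in the collagen values was not tested.

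The table also held a trend with gene length: of all 3024 tested genes of 5000 bases or more, 1.72% were called higher in Sox2 cKO and 36.5% lower. The median over these long genes was -0.26 on the log2 scale, beside 0.02 over all 16137 genes tested. Collagen genes are long. Their median length was 6228.5 bases against 3060 bases for all genes tested, and 32 of the 42 members reached 5000 bases, so calls that differ in the fit corrected for length are given with it. Of the markers above, Mgp and Pdgfra were not called in that fit (adjusted p = 0.131 and 0.238, edgeR). Called lower there were 4 of 10 astrocyte markers, 2 of 7 oligodendrocyte precursor markers and 0 of 10 pericyte and smooth muscle markers.

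Sequence upstream of the transcript start is shown for 4 members whose RefSeq start equals the annotated start and whose upstream window holds no annotated exon: Col23a1, the single member called lower, and Col24a1, Col11a1 and Col5a3, which were called higher. Col7a1, also called higher, meets the same conditions and is not printed. Each run gives the 250 bases before the start, 5′ to 3′ on the gene's strand, in GRCm38.p6. Capitals mark the words CCAAT and GGGCGG and their reverse complements, the cores of the CCAAT box and of the GC box. The windows lie at chr11:51289670-51289919 (+ strand), chr3:145292222-145292471 (+), chr3:114030290-114030539 (+) and chr9:20815068-20815317 (- strand), in the order printed.
Col23a1: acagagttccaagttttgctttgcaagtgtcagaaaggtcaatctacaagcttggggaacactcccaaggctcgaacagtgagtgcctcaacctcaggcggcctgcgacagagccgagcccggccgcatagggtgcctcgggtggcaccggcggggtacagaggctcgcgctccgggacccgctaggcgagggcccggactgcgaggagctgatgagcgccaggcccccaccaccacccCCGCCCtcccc
Col24a1: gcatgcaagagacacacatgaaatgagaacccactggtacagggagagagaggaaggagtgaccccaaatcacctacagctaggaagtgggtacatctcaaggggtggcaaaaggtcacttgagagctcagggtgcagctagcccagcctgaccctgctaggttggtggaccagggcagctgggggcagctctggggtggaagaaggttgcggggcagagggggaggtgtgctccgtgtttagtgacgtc
Col11a1: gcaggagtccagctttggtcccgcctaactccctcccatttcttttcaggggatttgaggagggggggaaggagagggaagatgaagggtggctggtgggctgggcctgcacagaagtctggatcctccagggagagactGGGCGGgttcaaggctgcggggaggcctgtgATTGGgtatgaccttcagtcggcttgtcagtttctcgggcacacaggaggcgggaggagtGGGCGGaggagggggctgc
Col5a3: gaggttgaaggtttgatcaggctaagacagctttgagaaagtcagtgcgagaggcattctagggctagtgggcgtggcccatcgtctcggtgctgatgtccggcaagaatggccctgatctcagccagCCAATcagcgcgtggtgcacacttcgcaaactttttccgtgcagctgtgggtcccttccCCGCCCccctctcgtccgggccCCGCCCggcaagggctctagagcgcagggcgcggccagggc

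Among the 36 windows that RefSeq holds for 33 of the members, 12 hold CCAAT on either strand, or 33.3%, against 33.8% of all 32851 windows of the same length. The word GGGCGG was in 22 of the 36, or 61.1%, against 32.7% of all windows. The SOX words ACAAAG and ACAATG were searched on both strands as well, and 3 member windows, those of Col3a1, Col20a1 and Col28a1, held at least one of them, or 8.3% against 25.2% of all windows. None of the 4 printed windows holds either of these 2 SOX words, which says only that these letters are not in these windows. The shorter CAAAG, which the study names with its variants as the SOX2 motif, was not searched, and its share of windows was not counted. Its reverse complement CTTTG can be read in the printed runs of Col23a1, Col11a1 and Col5a3. The matches overlap no other searched word in the printed runs.

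One member, Col5a3, has a SOX2 motif site inside it in the motif list that accompanies the study's SOX2 binding data. The site lies in a window at chr9:20794255-20794355 (mm10), in an intron of Col5a3 and 20712 bases downstream of its start. It is printed as listed, with the word that matches the motif in capitals and its flanks in lower case, on the minus strand. The binding data came from adult cerebral cortex, and binding of SOX2 at this word in the spinal cord was not tested.
Col5a3 intron site: tggccAGCACAATGGGgaaactctcc

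Over the whole family, 7 of the 41 tested collagen genes were called higher in Sox2 cKO and 1 was called lower. The background was 12.2% of all genes tested called higher and 12.4% called lower, against 17.1% and 2.44% of the tested collagens. The 7 higher genes were the fibrillar Col24a1, Col11a1, Col27a1, Col5a2 and Col5a3, the FACIT Col16a1 and the anchoring fibril gene Col7a1, and the lower gene was the transmembrane Col23a1. All 7 higher genes were 5000 bases long or more, and they made up 22.6% of the 31 tested members of that length, where the background was the 1.72% given above. DESeq2 called the same 7 higher and the same 1 lower, with 12.7% and 15.0% of all its tested genes called. In limma on log2(FPKM + 1), 74.5% of all called genes were higher, compared with 49.4% in the edgeR fit, and 6 collagens were higher and 1 was lower. These 6 were Col11a1, Col16a1, Col24a1, Col27a1, Col5a2 and, outside the 7, Col4a2. Col5a3 was not called there, and Col7a1, at 0.280 FPKM on average, fell under the minimum of 0.5 FPKM of that fit. With the correction for length, which called 6.08% of all genes higher and 6.99% lower, 11 collagens were higher and 1 was lower. The 4 added were Col4a2, Col4a5, Col18a1 and Col22a1.

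The count of 7 depended on single libraries. Without Ctrl library 4 or without Sox2 cKO library 1 the edgeR fit called 0 collagens higher, with adjusted p between 0.0650 and 0.107 for the 7 genes. In these 2 fits the whole table gave 13 and 3 genes higher and 13 and 5 lower. In the DESeq2 fits without the same libraries, 4 and 5 collagens were higher. The edgeR fit called 4 higher without Ctrl library 6, 5 without Sox2 cKO library 3, and 9 without Ctrl library 2 or Sox2 cKO library 5. In the same order of libraries the whole table gave 602, 698, 3030 and 1329 genes higher and 480, 661, 3089 and 1336 lower. Col24a1, Col11a1, Col27a1 and Col16a1 were called in each of the 6 DESeq2 fits that left out 1 library, and Col23a1 was called lower in each of the 12 such fits of both tools.

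**Figure D1:**
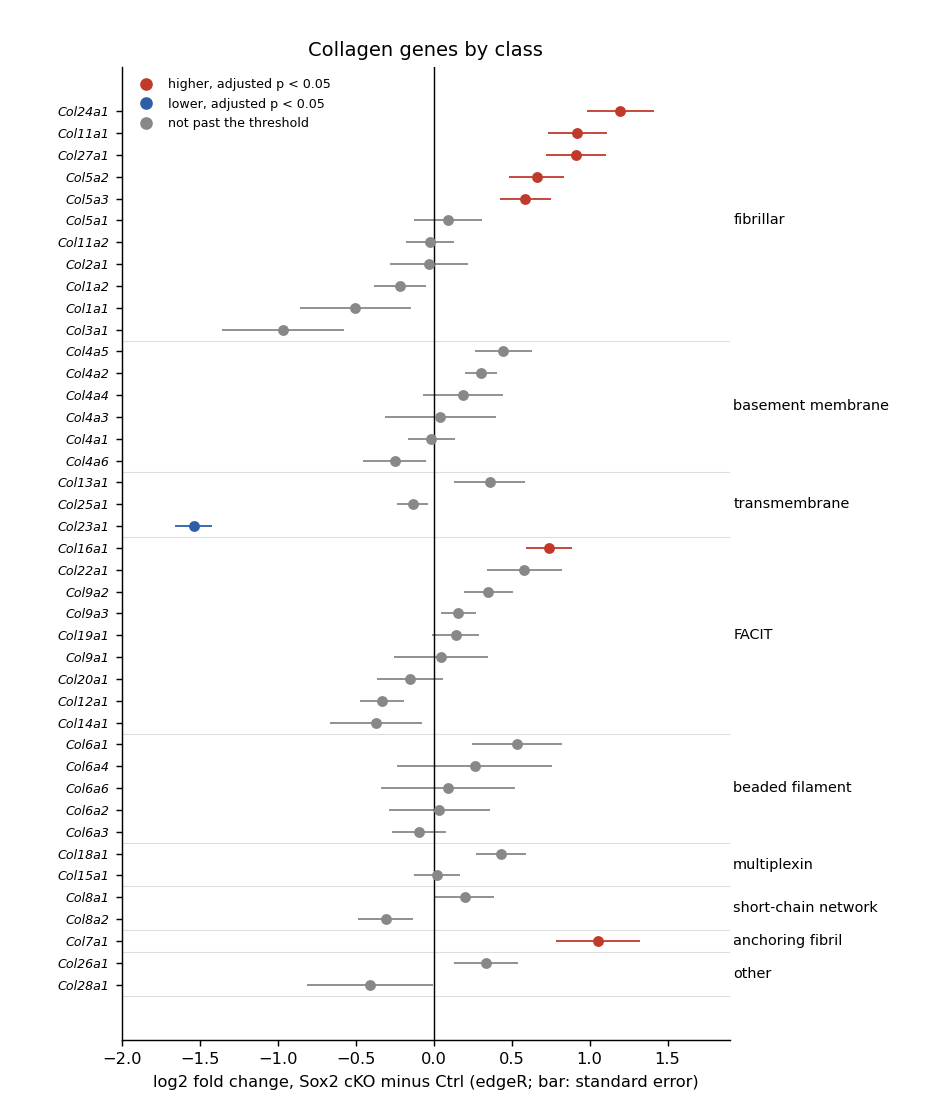
Log2 fold change of each tested collagen gene (edgeR, Sox2 cKO minus Ctrl, with its standard error as a bar), grouped by class, with red for genes called higher, blue for lower and grey for the rest. Fibrillar genes span from -0.97 for Col3a1 to 1.20 for Col24a1, the 6 basement membrane genes stay between -0.25 and 0.45, and Col23a1 lies apart at -1.54.

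The 11 fibrillar genes, all tested, held 5 of the 7 collagens called higher and none called lower. Their log2 fold changes had a median of 0.09. They spread more widely than any other class, between -0.97 and 1.20. The abundant chains of types I and III lay at the bottom of that range, and minor chains lay at the top.

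Col24a1, the chain of collagen XXIV, a minor fibrillar type known from forming bone, rose most. Its level was 0.642, 0.364 and 0.363 FPKM in Ctrl libraries 2, 4 and 6 and 1.26, 1.12 and 0.974 FPKM in Sox2 cKO libraries 1, 3 and 5. The groups did not overlap, and the Sox2 cKO level was 2.29-fold higher (log2 fold change 1.20, SE 0.22, adjusted p = 0.0126, edgeR). Col24a1 (ENSMUSG00000028197) lies at chr3:145292472-145552011 on mm10.

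Col11a1 and Col27a1 rose by nearly the same amount. Col11a1, which codes for a chain of collagen XI and helps to start thin fibrils in cartilage, stood at 3.93, 2.55 and 2.42 FPKM in Ctrl and 6.97, 6.62 and 4.44 FPKM in Sox2 cKO. Its log2 fold change was 0.92 (SE 0.19, adjusted p = 0.0137, edgeR). Col27a1, a fibrillar gene of developing cartilage, stood at 1.79, 1.39 and 1.09 FPKM in Ctrl and 3.59, 2.87 and 2.13 FPKM in Sox2 cKO, with a log2 fold change of 0.91 (SE 0.19, adjusted p = 0.0145, edgeR). For both genes every Sox2 cKO library lay above every Ctrl library, and Ctrl library 2 was the highest of its group.

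Type V chains, which limit fibril width, moved unequally. Col5a2 was higher in Sox2 cKO, at 1.63, 1.14 and 0.927 FPKM in Ctrl and 2.15, 2.23 and 1.87 FPKM in Sox2 cKO (log2 fold change 0.66, SE 0.18, adjusted p = 0.0253, edgeR). Col5a3 was also higher, at 0.896, 0.908 and 0.773 FPKM in Ctrl and 1.72, 1.27 and 1.19 FPKM in Sox2 cKO (log2 fold change 0.59, SE 0.16, adjusted p = 0.0288, edgeR). Neither group of values overlapped the other. With 1 library left out, edgeR called Col5a2 and Col5a3 in 2 of 6 fits each, and DESeq2 called them in 3 and 2 of 6. The third chain, Col5a1, had a log2 fold change of 0.09 (SE 0.22, adjusted p = 0.778, edgeR) and was not called. Within libraries, the FPKM ratio of Col5a2 to Col5a1 was 1.16 ± 0.132 (SD, n = 3) in Ctrl and 1.72 ± 0.292 in Sox2 cKO, and that of Col5a3 to Col5a1 was 0.845 ± 0.228 and 1.12 ± 0.00827. Both ratios separated the groups, with an exact two-sided permutation p of 0.1 each, the smallest that 3 against 3 can give, or 0.2 after adjustment over the 10 chain ratios computed.

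The abundant fibrillar genes did not pass the test, and their values depended on 1 control. Col1a2, the collagen gene with the highest level at 17.7 FPKM on average, stood at 21.9, 21.0 and 12.4 FPKM in Ctrl and 18.7, 15.9 and 16.3 FPKM in Sox2 cKO (log2 fold change -0.22, SE 0.17, adjusted p = 0.362, edgeR). The groups overlapped, with Ctrl libraries 2 and 4 above and Ctrl library 6 below every Sox2 cKO library. Col3a1, chosen after its values were seen, had 11.6, 9.78 and 2.57 FPKM in Ctrl and 4.73, 3.72 and 4.57 FPKM in Sox2 cKO, with a log2 fold change of -0.97 (SE 0.39, adjusted p = 0.0937, edgeR). Col1a1, likewise chosen afterwards, had 11.7, 8.66 and 2.80 FPKM in Ctrl and 6.09, 5.20 and 6.06 FPKM in Sox2 cKO, with a log2 fold change of -0.50 (adjusted p = 0.319, edgeR). Ctrl library 6 is the one with the low fibroblast marker sum given above, whose part in these values was not tested.

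Without Ctrl library 6, all of Col1a1, Col1a2 and Col3a1 were called lower in Sox2 cKO, with log2 fold changes of -0.89, -0.42 and -1.38 and adjusted p of 0.0193, 0.0419 and 0.000908 (edgeR). In that fit Col24a1, Col11a1, Col27a1 and Col16a1 stayed higher, and Col5a2, Col5a3 and Col7a1 lost their call, so that 4 collagens were higher and 4 were lower. In the fit with no filter on low counts, which kept all 6 libraries, Col3a1 was called lower too (adjusted p = 0.0187, edgeR).

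Summed over its genes, the fibrillar class hid this divergence. The 11 genes together made 392, 378 and 252 CPM in Ctrl and 356, 328 and 314 CPM in Sox2 cKO, so the groups overlapped. Col1a1, Col1a2 and Col3a1 contributed 252, 227 and 103 CPM in Ctrl and 153, 132 and 147 CPM in Sox2 cKO. The other 8 fibrillar genes summed to 139, 151 and 149 CPM in Ctrl and 203, 196 and 167 CPM in Sox2 cKO, with no overlap. The split into 3 and 8 genes was made after values were seen and carries no test.

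The remaining fibrillar genes, Col11a2 and Col2a1, had log2 fold changes of -0.02 and -0.03. Col11a2 was the collagen with the second highest level, between 9.72 and 15.3 FPKM, and Col2a1 lay between 0.303 and 0.594 FPKM. The ratio of Col11a1 to Col11a2, chains that share the type XI molecule, was 0.246 ± 0.137 (SD, n = 3) in Ctrl and 0.430 ± 0.0870 in Sox2 cKO and overlapped between groups (exact permutation p = 0.2, adjusted p = 0.25 over the 10 ratios).

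**Figure D2:**
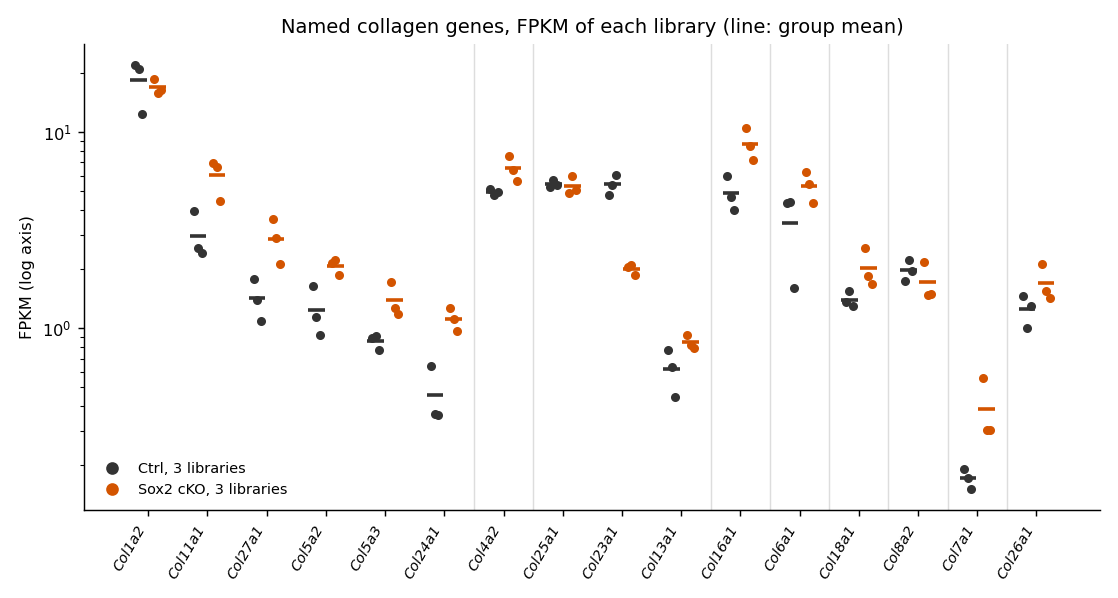
FPKM on a log axis of the 16 collagen genes that were called, were the most abundant of their class or are transmembrane, with 1 point per library and a line at each group mean. Col23a1 is the one gene whose Ctrl points, between 4.79 and 6.07 FPKM, all lie far above its Sox2 cKO points, between 1.86 and 2.09 FPKM.

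Col3a1 and Col5a2 are neighbours that face each other tail to tail on chromosome 1, 24614 bases apart. Their log2 fold changes were -0.97 and 0.66, and the FPKM ratio of Col5a2 to Col3a1 was 0.141, 0.117 and 0.361 in Ctrl and 0.456, 0.598 and 0.409 in Sox2 cKO. The groups did not overlap (exact permutation p = 0.1, the smallest possible, and 0.2 adjusted). The ratio of Col3a1 to Col1a1, which together form the fibrils of meninges and vessel walls, was 0.994, 1.13 and 0.917 in Ctrl and 0.776, 0.715 and 0.755 in Sox2 cKO, also with no overlap (exact permutation p = 0.1). Here Ctrl library 6 lay with its group although its levels were low.

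Transmembrane collagens were represented by 3 members, and they differed in level and in response. Col23a1, the gene for collagen XXIII, whose ectodomain can be shed from the cell surface, fell 2.90-fold. Its level was 4.79, 5.39 and 6.07 FPKM in Ctrl and 2.05, 2.09 and 1.86 FPKM in Sox2 cKO, from 608 to 763 counts and from 249 to 336 counts per library. Each group was tight and the gap between them exceeded the range of either (log2 fold change -1.54, SE 0.12, adjusted p = 0.000913, edgeR). Col23a1 (ENSMUSG00000063564) spans chr11:51289920-51583918 on mm10.

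Col25a1, made by neurons and known as the precursor of a component of amyloid plaques, had nearly the same control level as Col23a1 and was not called. It stood at 5.27, 5.72 and 5.34 FPKM in Ctrl and 4.91, 5.96 and 5.05 FPKM in Sox2 cKO (log2 fold change -0.14, SE 0.10, adjusted p = 0.337, edgeR), with overlapping groups. Its sign turned with the correction for length, to 0.11 (adjusted p = 0.345, edgeR). The ratio of Col23a1 to Col25a1 was 0.908, 0.942 and 1.14 in Ctrl and 0.417, 0.351 and 0.369 in Sox2 cKO (exact permutation p = 0.1, adjusted p = 0.2 over the 10 ratios).

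Col13a1, a transmembrane collagen of the neuromuscular junction, was low, at 0.775, 0.632 and 0.446 FPKM in Ctrl and 0.926, 0.824 and 0.798 FPKM in Sox2 cKO. The groups did not overlap, but the log2 fold change of 0.36 (SE 0.23) did not pass the test (adjusted p = 0.269, edgeR). Summed, the 3 genes fell from 65.3, 73.7 and 75.9 CPM in Ctrl to 44.8, 52.6 and 46.4 CPM in Sox2 cKO, and their share of all collagen FPKM went from between 8.63% and 13.1% to between 5.76% and 7.48%. Of the 3 genes Col23a1 alone was called.

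None of the 6 basement membrane genes was called in either direction, and their median log2 fold change was 0.12. Col4a2, the most abundant of them and, with Col4a1, the chain of nearly all vessel basement membranes, stood at 5.13, 4.75 and 4.92 FPKM in Ctrl and 7.58, 6.42 and 5.61 FPKM in Sox2 cKO. The groups did not overlap, with a log2 fold change of 0.30 (SE 0.10) and an adjusted p of 0.0541 (edgeR), just above the threshold of 0.05. Col4a2 was called higher with upper quartile scaling, without a filter, with a filter of 10 counts in every library, in limma on FPKM and with the correction for length, at adjusted p between 0.0258 and 0.0499. It was not called by DESeq2 (adjusted p = 0.0538), with DESeq2 size factors or with a correction for GC content (adjusted p = 0.0683, edgeR). With 1 library left out it was called only without Sox2 cKO library 5, in both tools. The adjusted p of these fits reached 0.184 in edgeR and 0.269 in DESeq2.

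Col4a1 and Col4a2 start head to head on chromosome 8 and share a promoter, and their annotated genes overlap by 22 bases on opposite strands, yet Col4a1 had a log2 fold change of -0.01 (SE 0.15, adjusted p = 0.950, edgeR). The ratio of Col4a1 to Col4a2 was 0.955 ± 0.119 (SD, n = 3) in Ctrl and 0.764 ± 0.0890 in Sox2 cKO, with overlap between groups (exact permutation p = 0.2, 0.25 adjusted). The pair on the X chromosome, Col4a5 and Col4a6, had log2 fold changes of 0.45 and -0.25, and the pair on chromosome 1, Col4a3 and Col4a4, known from kidney, had 0.04 and 0.19. Col4a5 passed the test with the correction for length (adjusted p = 0.0491, edgeR). The class summed to 78.5, 81.3 and 81.6 CPM in Ctrl and 105, 86.0 and 81.7 CPM in Sox2 cKO, where library 1 was the highest for this class and also for endothelial markers, at 345 CPM; the part of those cells was not tested.

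**Figure D3:**
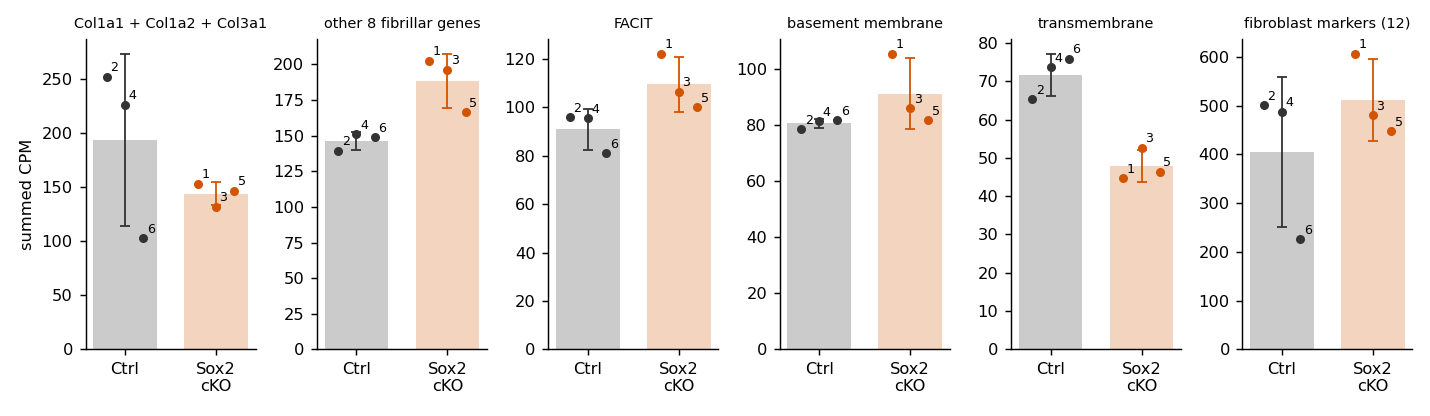
Summed CPM of collagen groups and of 12 fibroblast markers, with a point for each library (numbered), a bar from 0 at the group mean and the SD of 3 libraries as an error bar. Ctrl library 6 is low in the sum of Col1a1, Col1a2 and Col3a1 and in the fibroblast markers but not in the other 8 fibrillar genes. The transmembrane and FACIT sums separate the groups in opposite directions. Each holds 1 called gene, Col23a1 lower and Col16a1 higher, so the sums do not show a change shared by their class.

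FACIT collagens, which sit on the surface of fibrils, were led by Col16a1. This gene, which codes for collagen XVI and was the third most abundant member, stood at 6.00, 4.65 and 3.98 FPKM in Ctrl and 10.4, 8.48 and 7.24 FPKM in Sox2 cKO. All Sox2 cKO libraries lay above the controls (log2 fold change 0.74, SE 0.15, adjusted p = 0.0132, edgeR). The other 8 FACIT genes were not called, and their log2 fold changes lay between -0.37 for Col14a1 and 0.58 for Col22a1. Col22a1, a gene of tissue junctions, was called higher with the correction for length (adjusted p = 0.0456, edgeR). Of the others, by CPM, Col9a2, a chain of the cartilage collagen IX, was higher in every Sox2 cKO library without overlap and Col12a1, which binds type I fibrils, was lower without overlap, with adjusted p of 0.120 and 0.113 (edgeR). The class sum was 81.0 to 96.0 CPM in Ctrl and 100.1 to 122 CPM in Sox2 cKO. Col16a1 alone made 22.0 to 31.4 CPM of it in Ctrl and 37.2 to 51.4 CPM in Sox2 cKO.

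Col7a1, the only anchoring fibril gene and best known from skin, was called higher at a low level. It had 40, 40 and 31 counts in Ctrl and 111, 80 and 73 counts in Sox2 cKO, or 0.193, 0.173 and 0.152 FPKM against 0.558, 0.305 and 0.302 FPKM. The groups were apart, with library 1 the highest (log2 fold change 1.05, SE 0.27, adjusted p = 0.0229, edgeR). The call was lost without Sox2 cKO library 1, Ctrl library 4 or Ctrl library 6, at adjusted p of 0.0865, 0.0871 and 0.0715 (edgeR), while the lowest log2 fold change of these fits was 0.73, without library 1.

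Collagen VI, which forms beaded filaments around cells, had no called gene among 5 tested. Col6a1 stood at 4.32, 4.40 and 1.60 FPKM in Ctrl and 6.27, 5.41 and 4.33 FPKM in Sox2 cKO (log2 fold change 0.53, SE 0.29, adjusted p = 0.196, edgeR). Ctrl library 6 was the lowest here as it was for Col1a1 and Col3a1, and the groups overlapped in that Ctrl library 4 lay just above Sox2 cKO library 5. The other tested members of the class had log2 fold changes between -0.09 and 0.26.

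Multiplexins, which link basement membranes to the matrix and include the parent of endostatin, held Col18a1 and Col15a1. Col18a1 stood at 1.36, 1.55 and 1.29 FPKM in Ctrl and 2.57, 1.84 and 1.68 FPKM in Sox2 cKO, without overlap but short of the threshold (log2 fold change 0.43, SE 0.16, adjusted p = 0.0746, edgeR), and passed it with the correction for length (adjusted p = 0.0366). Col15a1 had a log2 fold change of 0.02. Of the short-chain collagens of hexagonal networks, Col8a2 stood at 1.74, 2.22 and 1.95 FPKM in Ctrl and 2.18, 1.48 and 1.50 FPKM in Sox2 cKO, with overlap (log2 fold change -0.31, adjusted p = 0.218, edgeR), and Col8a1 had 0.20. The remaining genes, Col26a1 at 1.46, 1.01 and 1.29 FPKM in Ctrl and 2.12, 1.55 and 1.43 FPKM in Sox2 cKO and the low Col28a1, overlapped between groups, with log2 fold changes of 0.34 and -0.41.

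Levels within the family spanned 17.7 to 0.0308 FPKM on average over libraries, and 27 members reached 1 FPKM. The 4 most abundant members, Col1a2, Col11a2, Col16a1 and Col1a1, made up 38.0% of the summed collagen FPKM. By CPM, 13 members were higher in Sox2 cKO without overlap between groups and 2 were lower, against 22.6% and 22.1% of all genes tested. The 13 included all 7 called genes, and the 2 were Col23a1 and Col12a1. No other annotated gene overlaps any of the 8 called members, whereas the strand setting of the counting is not given in the sources used here, so reads of Col4a1 and Col4a2 in their overlap cannot be told apart.

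**Figure D4:**
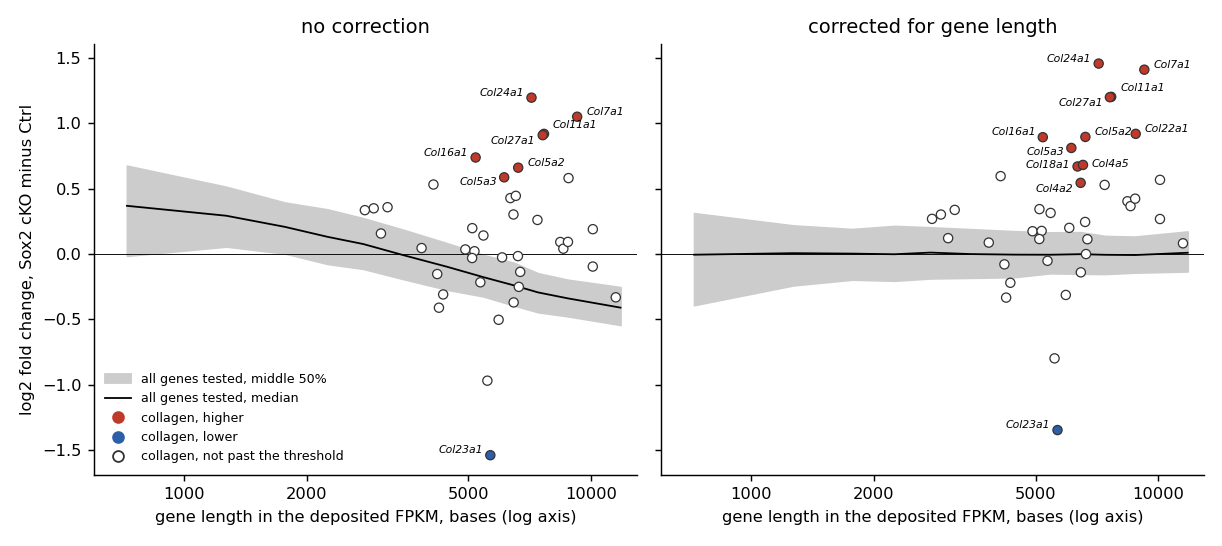
Log2 fold change against gene length (log axis) for the 41 tested collagens, with the median and middle 50% of all genes tested as a line and band, without correction on the left and with each library corrected for its trend with length on the right. The median of all genes falls with length on the left and is flat on the right. The 7 genes picked because they were called higher lie above the band in both, and Col23a1, picked because it was called lower, lies below it in both.

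Long genes tended to be lower in Sox2 cKO. The 7 collagens called higher lay above that trend, which follows from their being picked by that call. The median log2 fold change of the 41 was 0.09 without the correction and 0.30 with it, against 0.02 and 0.00 for all genes tested. With the correction 33 of the 41 lay above 0, compared with 26 without it. Those that changed sign were Col25a1, Col12a1, Col11a2, Col4a1, Col2a1, Col6a3 and Col4a6, and none of them was called in either fit. By class the medians moved from 0.09 to 0.40 for fibrillar, from 0.12 to 0.46 for basement membrane and from -0.14 to 0.11 for transmembrane genes, the last of these being the value of Col25a1. Col23a1 was at -1.35 with the correction (adjusted p = 0.000811, edgeR), where its length is 5658 bases and the median uncorrected log2 fold change of the 1142 tested genes between 5000 and 6000 bases was -0.18. The cause of the trend with length was not tested.

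Collagen chains need enzymes, chaperones and receptors, and a list of 67 such genes was counted for comparison. Of these, 66 were tested, 4 were higher and 8 were lower in Sox2 cKO around a median of 0.01 on the log2 scale, beside the 12.2% and 12.4% of all genes called in each direction. These counts depended on single libraries. In edgeR fits without 1 library, 0 machinery genes were higher without Ctrl library 4, Ctrl library 6, Sox2 cKO library 1 or Sox2 cKO library 3, 1 was higher without Sox2 cKO library 5, and 9 were higher without Ctrl library 2. None was lower without Ctrl library 4 or Sox2 cKO library 1, 2 were lower without Sox2 cKO library 3, 4 were lower without Ctrl library 6 or Sox2 cKO library 5, and 11 were lower without Ctrl library 2. The whole table gave 3030 genes higher and 3089 lower without Ctrl library 2, and 1329 and 1336 without Sox2 cKO library 5. It gave 698 and 661 without Sox2 cKO library 3, and 602 and 480 without Ctrl library 6. Without Ctrl library 4 it gave 13 and 13, and without Sox2 cKO library 1 it gave 3 and 5. With the correction for length, 3 machinery genes were higher and 6 were lower.

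Among hydroxylases and glycosyltransferases, which modify the chains in the endoplasmic reticulum, 1 of 14 was higher and 1 was lower. P4ha2, a prolyl 4-hydroxylase subunit, stood at 3.73, 3.47 and 3.64 FPKM in Ctrl and 4.76, 5.04 and 5.06 FPKM in Sox2 cKO (log2 fold change 0.36, SE 0.11, adjusted p = 0.0354, edgeR). Plod1, a lysyl hydroxylase, went from 18.0 ± 0.776 FPKM (SD, n = 3) to 15.7 ± 1.03 FPKM (log2 fold change -0.30, adjusted p = 0.0283, edgeR). Neither P4ha2 nor Plod1 was called with the correction for length, at adjusted p of 0.0597 and 0.0590 (edgeR). Of 8 genes for chaperones and secretion 2 were lower and none was higher. Fkbp10, a prolyl isomerase that helps procollagen fold, had a log2 fold change of -0.59 (adjusted p = 0.0167, edgeR), and Mia3, which loads procollagen at endoplasmic reticulum exit sites, had -0.38 (adjusted p = 0.0177, edgeR). Mia3 was not called with the correction for length (adjusted p = 0.163, edgeR). None of the 8 propeptide proteases and enhancers was called.

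Outside the cell, Loxl2, a lysyl oxidase that cross-links collagen IV and fibrils, was the only 1 of 7 cross-linking genes called. Its level was 1.22, 1.15 and 1.48 FPKM in Ctrl and 0.735, 0.490 and 0.683 FPKM in Sox2 cKO, a 2.17-fold fall with no overlap (log2 fold change -1.12, SE 0.20, adjusted p = 0.0125, edgeR). With the correction for length a second cross-linking gene was called, Pxdn, a peroxidase that links collagen IV, which was higher (log2 fold change 0.58, adjusted p = 0.0476, edgeR), against 0.33 and an adjusted p of 0.115 without it. Of 11 fibril-associated proteoglycan and matrix genes 1 was called, Sparc, a collagen-binding matricellular protein, at 538, 351 and 260 FPKM in Ctrl and 675, 605 and 596 FPKM in Sox2 cKO (log2 fold change 0.62, adjusted p = 0.0439, edgeR). Sparc was not called by DESeq2 (adjusted p = 0.101) or with the correction for length (adjusted p = 0.0799, edgeR), and its Ctrl libraries were spread with library 6 lowest.

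Collagen receptors had 3 lower and 1 higher among 10. Ddr1, a receptor tyrosine kinase that collagens activate, went from 46.5, 46.9 and 43.0 FPKM in Ctrl to 38.7, 36.1 and 38.7 FPKM in Sox2 cKO (log2 fold change -0.36, SE 0.08, adjusted p = 0.0146, edgeR). Adgrg1, the adhesion receptor GPR56 for which collagen III is a ligand in the developing brain, went from 29.2, 37.9 and 37.7 FPKM to 28.5, 24.6 and 23.7 FPKM (log2 fold change -0.55, SE 0.12, adjusted p = 0.0149, edgeR). Both sets of values were apart, by a narrow margin for Adgrg1. Itga2, the alpha chain of a collagen-binding integrin, was nearly absent, with 12, 17 and 21 counts in Ctrl and 7, 8 and 3 in Sox2 cKO (log2 fold change -1.68, SE 0.46, adjusted p = 0.0276, edgeR), and DESeq2 gave it no adjusted p. Itga10, the alpha chain of another such integrin, was higher, with a log2 fold change of 0.69 (SE 0.22, adjusted p = 0.0480, edgeR).

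Of the 8 tested genes for collagenases and uptake, Mmp8 was higher and Mmp14 was lower. Mmp8, a collagenase of neutrophils, had 9, 6 and 3 counts in Ctrl and 24, 49 and 17 counts in Sox2 cKO (log2 fold change 2.06, SE 0.49, adjusted p = 0.0181, edgeR). Mmp14, a membrane-bound metalloproteinase that cuts fibrillar collagen, stood at 6.88, 9.30 and 12.8 FPKM in Ctrl and 7.54, 5.90 and 4.16 FPKM in Sox2 cKO, and the groups overlapped although the gene was called (log2 fold change -0.83, SE 0.24, adjusted p = 0.0329, edgeR). Ctrl library 2, with the lowest Mmp14 level of its group, lay below Sox2 cKO library 1.

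**Figure D5:**
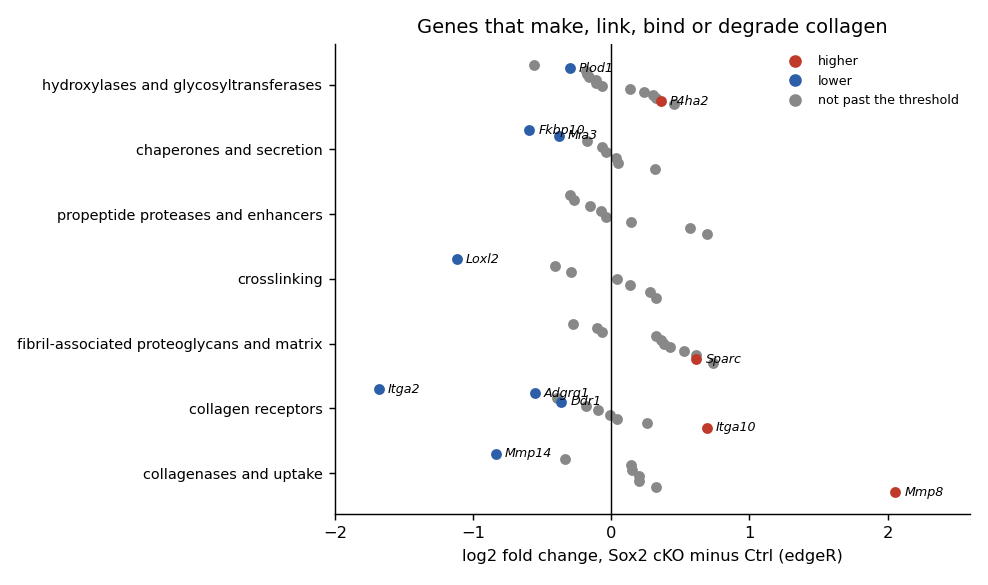
Log2 fold change (edgeR, Sox2 cKO minus Ctrl) of 66 tested genes that make, cross-link, bind or degrade collagen, in rows by role, with named points for the 12 that were called. Called genes lie on both sides of 0 and no role has more than 4 of them.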

How the data were processed

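Poly(A) RNA of 6 whole spinal cords was sequenced with a directional kit. Per the study's methods, STAR 2.5 placed the single-end reads on mm10, and the authors deposited raw counts per gene from HTSeq 0.6.1, 1 column per library, not pooled. The authors also deposited FPKM, the counts divided by gene length and library total, from which the lengths used here were recovered. The strand setting and the annotation release are not given in the sources used here, and 34490 of 35275 gene IDs matched GENCODE M21.

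Columns were assigned to groups by the mouse number that ends their name, with 0 further columns of per-sample values. The study's listed group means matched these columns for 1999 of 1999 genes within a relative difference of 0.0001, and for 0 when the groups were exchanged. No 2 libraries differed by less than sampling noise (chi-square per degree of freedom 6.74 to 83.4 over 15 pairs).

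Counts were tested with edgeR 4.0.16 in R 4.3.3 (filterByExpr, TMM, quasi-likelihood test, two-sided), with Benjamini-Hochberg adjustment over all 16137 genes tested and a threshold of 0.05, under which a gene is said to be called. "Higher" and "lower" mean in Sox2 cKO relative to Ctrl. Levels are FPKM, and CPM use TMM factors. Chain ratios were compared by exact permutation over samples. Alternatives were DESeq2 1.42.0, the test of the study's methods, other scalings and filters, limma 3.58.1 on log2(FPKM + 1) and log2(FPKM + 0.1) where the mean FPKM reached 0.5, lowess corrections (span 0.3) for length or GC content, and leaving out each library. The fits were tested on simulated data.

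Members and gene lists were chosen with earlier results of these data known. Values of all 6 libraries are given for called members, for the most abundant member of each class and for the transmembrane members. Called machinery genes are named, at most 3 rises and 3 falls per role. P-values of the fits set the difference between groups against the spread of these 6 samples within groups, estimated with information shared over genes. Those of the chain ratios come from exchanging these samples between groups. Upstream sequences are from RefSeq (GRCm38.p6), and Col1a1, Col9a3, Col5a2, Col12a1, Col26a1, Col2a1, Col14a1, Col22a1 and Col4a3 had no window.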

Additional observations from a re-analysis of the deposited data

How the results depend on the processing

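Against 7 collagens higher and 1 lower, the correction for gene length gave 11 higher, and the fit with no filter on low counts gave 2 lower, the second being Col3a1. All other alternatives that kept the 6 libraries gave 6 to 8 higher and 1 lower. Leaving out 1 library at a time gave 0 to 9 collagens higher and 1 to 4 lower, and 0 to 9 machinery genes higher and 0 to 12 lower against 4 and 8. Over all genes those fits gave 3 to 3030 higher and 5 to 3089 lower. Without Ctrl library 2, Col11a2 and Col12a1 joined Col23a1 as lower, in both tools. Limma gave 5 machinery genes lower on log2(FPKM + 1) and 5 on log2(FPKM + 0.1). Col25a1 turned from -0.14 to 0.11 with the length correction, the one change of sign among the 16 collagens given with all libraries. Among the other collagens, none of them called in those fits, the length correction also turned Col12a1 from -0.33 to 0.08, Col11a2 from -0.02 to 0.20, Col4a1 from -0.01 to 0.25 and Col2a1 from -0.03 to 0.12, and with 1 library left out Col5a1 ranged from -0.12 to 0.31 (edgeR). Over all genes, 49.4% of those called were higher with TMM, 47.4% with DESeq2 size factors and 58.3% with upper quartile scaling. The share was 74.5% in limma on FPKM, where unit, test and filter change together, and its cause was not tested. No paired analysis was possible because the columns carry no replicate number of the labels. Summed over all 6 libraries, Col6a5, Col28a1, Col6a4 and Col6a6 had 42, 95, 103 and 119 counts, and small differences in them were not detectable at this depth.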

Other observations

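Beside the members, Col17a1 had 2 to 6 counts per library and Col10a1 had 0 to 5 counts per library, with overlapping groups for both. A summed count minimum of 10 in place of 30 would give 44 collagen members and a minimum of 100 would give 40.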
